A study of Mus musculus with 12 samples.

Results

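Transcripts of 10 genes of the endoplasmic reticulum (ER) stress and integrated stress response pathways, *Hspa5*, *Hsp90b1*, *Herpud1*, *Atf6*, *Xbp1*, *Atf4*, *Ddit3*, *Trib3*, *Chac1* and *Asns*, were followed through mouse kidneys with and without polycystic kidney disease (PKD). The genes were taken by symbol from a table of 35275 genes, as the row with the most reads for each symbol, and all 10 were present and passed the filter on low counts in every comparison. Kidney poly(A) RNA was sequenced from 12 C57BL/6J mice at 6 months of age, in 3 groups of 4 mice with 2 males and 2 females each. WT mice carry neither mutation. RC/RC mice carry a hypomorphic knock-in allele of *Pkd1* (R3277C) on both chromosomes, a slowly progressive model of PKD in which some polycystin-1 function remains, and their *Casp1* is intact. RC/RC:*Casp1*KO mice carry the same *Pkd1* alleles together with a homozygous deletion in *Casp1*, the gene for the inflammasome protease Caspase-1, that was made with TALENs and is present in all cells. Libraries held 20556335 to 22656309 counted reads in WT, 18019819 to 24284831 in RC/RC and 18738755 to 24869454 in RC/RC:*Casp1*KO mice. The table names each mouse by its group and a number but does not say which are male, so no value is given by sex. RC/RC mice are called RC105, RC139, RC140 and RC143 here, after their columns.

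Proteins that enter the ER are folded there by chaperones, and misfolded ones are returned to the cytosol and degraded. When unfolded proteins accumulate, a trio of sensors responds. ATF6 is cut in the Golgi to release a transcription factor, IRE1 splices the *Xbp1* mRNA so that it encodes an active transcription factor, and PERK phosphorylates the initiation factor eIF2α. The last step is shared with other kinases that sense amino acid shortage, viral RNA or heme deficiency and is the core of the integrated stress response: general translation falls while the *Atf4* mRNA is translated more, and ATF4 then raises genes of amino acid supply and, through CHOP, genes tied to cell death. Cleavage of ATF6, splicing of *Xbp1*, phosphorylation and translation of *Atf4* cannot be seen in counts per gene, which sum all spliced forms of a transcript.

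Promoters of some of these genes carry short elements of kinds that ATF6, XBP1 and ATF4 are known to bind. The stretches that hold them are shown for the 6 genes in which a search found one. RefSeq promoters (GRCm38.p6, from 250 bases before the transcription start to 50 after it) matched 9 of the 10 genes, all but *Atf6*. They were searched on both strands for the ER stress response element (ERSE, CCAAT and CCACG with any 9 bases between them), which 39 of 32851 promoters (0.119%) hold, for ERSE-II (ATTGG and CCACG with any 1 base between them), held by 12 (0.0365%), for the C/EBP-ATF response element (TGATGNAA), held by 1304 (3.97%), and for the unfolded protein response element (UPRE, TGACGTGG), held by 222 (0.676%). ERSE was found in *Hspa5* and, at 2 places, in *Hsp90b1*, ERSE-II in *Herpud1*, and the C/EBP-ATF response element in *Herpud1*, *Trib3*, *Chac1* and *Asns*. None of the matches overlapped another, and the UPRE letters were in none of the 9 windows. A match is a run of letters and was not tested as a binding site. The stretches are written 5′ to 3′ on the strand of the gene with the matches in capitals, where a match to the opposite strand appears as its reverse complement.
*Hspa5* (chr2:34772010-34772058, plus strand, ERSE 65 to 47 bases before the start): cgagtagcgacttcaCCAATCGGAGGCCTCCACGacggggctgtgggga
*Hsp90b1* (chr10:86705518-86705671, minus strand, ERSE 212 to 194 and 107 to 89 bases before the start): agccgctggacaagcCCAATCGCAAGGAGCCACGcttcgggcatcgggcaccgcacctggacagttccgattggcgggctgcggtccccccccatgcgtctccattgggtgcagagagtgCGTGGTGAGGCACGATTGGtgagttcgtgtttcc
*Herpud1* (chr8:94386302-94386402, plus strand, C/EBP-ATF response element beginning 112 and ERSE-II 52 to 42 bases before the start): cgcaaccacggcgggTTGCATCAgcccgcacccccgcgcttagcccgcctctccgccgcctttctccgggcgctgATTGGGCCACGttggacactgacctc
*Trib3* (chr2:152344028-152344057, minus strand, C/EBP-ATF response element at bases 14 to 21 after the start): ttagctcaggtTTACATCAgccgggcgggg
*Chac1* (chr2:119351034-119351071, plus strand, C/EBP-ATF response element 193 to 186 bases before the start): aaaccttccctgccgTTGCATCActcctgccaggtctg
*Asns* (chr6:7693210-7693247, minus strand, C/EBP-ATF response element 23 to 16 bases before the start): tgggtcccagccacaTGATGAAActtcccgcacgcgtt

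The kidneys were checked against their labels first. *Casp1* was counted at 1.51 ± 0.361 CPM (reads scaled to library size, mean ± SD, n = 4) in WT, 3.51 ± 0.705 in RC/RC and 0.693 ± 0.278 in RC/RC:*Casp1*KO kidneys, and no mouse of the knockout group reached the lowest mouse of either other group, although reads from outside the deleted stretch are still counted on the gene. The fall from RC/RC was 2.35 on the log2 scale (SE 0.324, edgeR adjusted p = 0.00514), while that from WT was not called (adjusted p = 0.128 in the same test). *Pkd1*, whose knock-in alleles change a codon, stood at 53 ± 13.8, 55.2 ± 9.85 and 71.6 ± 12.6 CPM. Markers of proximal tubule (*Kap*, *Lrp2*), thick ascending limb (*Umod*) and podocytes (*Podxl*) were abundant in every library, as in kidney tissue. Mice RC139 and RC140 stood apart from all others in a few traits, though not as a pair over all genes. They had the highest levels of *Hspa1a* and *Hspa1b*, the stress-inducible cytosolic HSP70 genes (63.3 and 61.6 CPM of *Hspa1a*, against 6.74 to 24.3 in the other 10 mice), the highest shares of mitochondrial reads (12.1% and 11.6%, against 7.78% to 10.6%) and the lowest levels of *Lrp2*, the endocytic receptor megalin (808 and 730 CPM, against 1310 to 3940). The counts of calls among the 10 genes, the pathway genes and the markers of immune cells, fibroblasts and proximal tubule are therefore also given without this pair. Apart from this, *Kap* divided every group into a low and a high pair, at 2340 to 6890 CPM in 6 mice (WT mice 2 and 3, RC105 and RC139, and 2 RC/RC:*Casp1*KO mice) and at 13000 to 18400 CPM in the other 6. The study's methods give 2 males and 2 females per group, and the columns do not say which mouse is which. No fit holds a term for sex or for this split, whose part in the results was not tested.

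Per transcript length the 10 genes spanned a wide range of levels. Mean FPKM values, which divide a count by gene length and library size, were 199 for *Herpud1* and 195 for *Hspa5* over the 12 mice, and the ranges over mice overlapped (136 to 330 and 116 to 302). *Hsp90b1* (86.8 FPKM) and *Xbp1* (79.4 FPKM) followed, again with overlapping ranges, then *Atf4* at 50.9 FPKM. *Ddit3* (12.8 FPKM) and *Atf6* (10.1 FPKM) lay lower with overlapping ranges, *Asns* had 3.18 FPKM, and *Chac1* (0.896 FPKM) and *Trib3* (0.884 FPKM) were the least expressed and did not separate. Reads counted per library were 17 to 77 for *Chac1* and 16 to 67 for *Trib3*, so counting error alone is a visible part of their spread. Differences between groups below compare each gene only with itself.

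**Figure D1:**
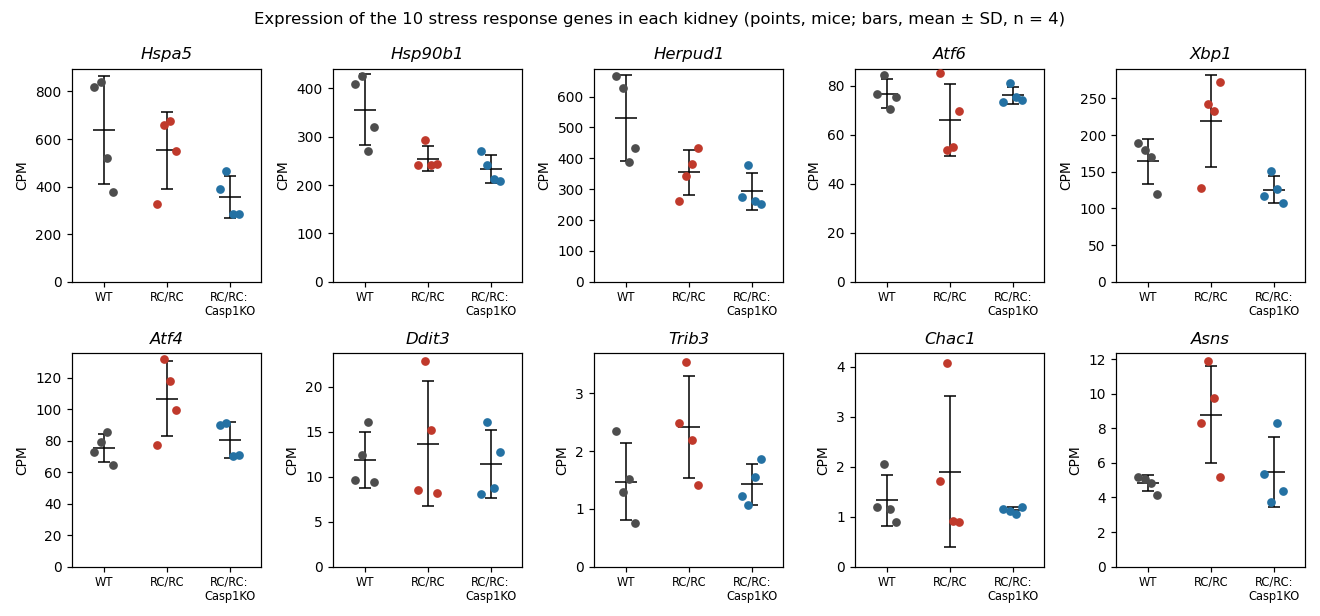
Expression of the 10 genes in each kidney in CPM (vertical axis of each panel, from 0) in WT (grey), RC/RC (red) and RC/RC:*Casp1*KO mice (blue). Points are mice and bars the mean ± SD (n = 4), and 3 of the 4 RC/RC mice lie above all WT mice for *Xbp1*, *Atf4* and *Asns* but not for the chaperones.

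The first comparison, RC/RC against WT, asks which of these genes differ in the cystic kidney. In edgeR's quasi-likelihood test *Asns* alone passed, with higher levels in RC/RC kidneys, and 0 of 10 genes passed with lower levels. The 10 genes did not move one way: the estimates for *Hsp90b1* and *Herpud1* lay below 0 and those for *Xbp1*, *Atf4* and *Trib3* above it. Of all 15243 genes tested, 9.76% passed with higher levels in RC/RC and 3.18% with lower levels, so 1 of 10 is close to the share over all genes. The median log2 fold change of the 10 genes was 0.30, beside -0.02 over all genes tested. Without RC139 and RC140 the median of the 10 was 0.01 with edgeR and 0 with DESeq2, with 5 estimates below 0 in each. At an unadjusted p under 0.05, 2 of the 10 were higher and 2 lower, against 29.2% of all genes in either direction (12% lower). With DESeq2's Wald test *Asns* passed as higher and *Hsp90b1* as lower, beside 3018 of 18264 genes tested, 1997 of them higher.

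Among the ATF4 targets, *Asns* (ENSMUSG00000029752, chr6:7675169-7693254 on the minus strand in mm10), which encodes asparagine synthetase and is transcribed when amino acids run short, had 5.19, 5.09, 4.83 and 4.15 CPM in WT mice 2, 3, 4 and 6. Mice RC105, RC139, RC140 and RC143 had 8.3, 11.9, 9.77 and 5.19 CPM. RC143 was level with the highest WT mouse and the other 3 RC/RC mice were above all WT mice. The increase was 1.82-fold (log2 fold change 0.86, SE 0.243, edgeR adjusted p = 0.0471 by the Benjamini-Hochberg method). *Trib3*, a pseudokinase that damps ATF4 signaling, had 1.47 ± 0.658 CPM in WT and 2.41 ± 0.881 in RC/RC mice with overlapping groups (log2 fold change 0.71, edgeR adjusted p = 0.255). *Chac1*, which degrades glutathione, had 1.32 ± 0.501 and 1.9 ± 1.5 CPM, where the RC/RC spread came from RC139 at 4.08 CPM and the other 3 mice had 0.901 to 1.72. These reads came from kidney tissue of mixed cell types, in which fewer cells of a type and less RNA per cell cannot be told apart.

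The transcription factors were next. *Atf4* itself was at 73.1, 79.3, 85.4 and 64.7 CPM in the WT mice and at 77.2, 132, 118 and 99.7 CPM in RC105, RC139, RC140 and RC143. RC105 fell within the WT range and the other 3 were above it (log2 fold change 0.49, SE 0.169, edgeR adjusted p = 0.0881). *Xbp1* was at 189, 179, 170 and 120 CPM in WT and at 128, 243, 233 and 272 CPM in RC/RC mice, with RC105 again the one within the WT range (log2 fold change 0.41, adjusted p = 0.277 in the same test). *Ddit3*, which encodes CHOP, varied more within RC/RC (8.15 to 22.9 CPM) than between the groups (means of 11.9 ± 3.11 and 13.7 ± 6.95 CPM). It overlaps *Mars* on the opposite strand, which collected 10592 reads over the 12 mice, and whether the counting used strand is not given in the sources used here.

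For the chaperones and the ER membrane protein of degradation the estimates pointed down. *Hspa5*, which encodes BiP, the main HSP70 chaperone of the ER and the protein that holds the sensors inactive, had 818, 840, 519 and 377 CPM in WT mice 2, 3, 4 and 6. The RC/RC mice had 326, 660, 674 and 550 CPM. The WT mice alone spanned more than 2-fold, and the groups overlapped (log2 fold change -0.21, SE 0.302, edgeR adjusted p = 0.679). WT mice 2 and 3, the low *Kap* pair, were above WT mice 4 and 6 for *Hspa5*, *Hsp90b1* and *Herpud1*. In RC/RC and in RC/RC:*Casp1*KO mice the low *Kap* pair was not above the high pair for any of these genes. Leaving out 1 mouse moved the *Hspa5* estimate between -0.396 and -0.042, and without RC139 and RC140 it was -0.541. It passed in none of these fits. *Hsp90b1*, which encodes the ER HSP90 chaperone GRP94, had 409, 425, 271 and 319 CPM in WT and 241, 292, 242 and 244 CPM in RC/RC mice, of which only RC139 was above the lowest WT mouse (log2 fold change -0.48, SE 0.165, adjusted p = 0.088 in the same test). *Herpud1*, which helps assemble the complex that exports misfolded proteins, had 530 ± 139 CPM in WT against 355 ± 72.7 CPM in RC/RC kidneys (log2 fold change -0.58, SE 0.22, edgeR adjusted p = 0.119). *Atf6* had 76.7 ± 5.82 and 65.9 ± 14.8 CPM, and RC139 and RC140 held its 2 lowest values of all 12 mice (53.8 and 54.8 CPM).

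The *Asns* call was narrow. It was kept without RC143 (log2 fold change 1.05, edgeR adjusted p = 0.00761). When any of the other 7 mice was left out it was lost (log2 fold change from 0.66 to 0.898, edgeR adjusted p from 0.0714 to 0.128). *Atf4* passed instead without RC105 (adjusted p = 0.0267 in the same test) and *Hsp90b1* without WT mouse 4 (adjusted p = 0.0372). Without both RC139 and RC140, 0 of 10 genes passed by edgeR or DESeq2 (1 and 2 at an unadjusted p under 0.05) and the *Asns* log2 fold change was 0.49 (edgeR adjusted p = 0.407). Of all 15850 genes tested in that edgeR fit, 492 passed.

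**Figure D2:**
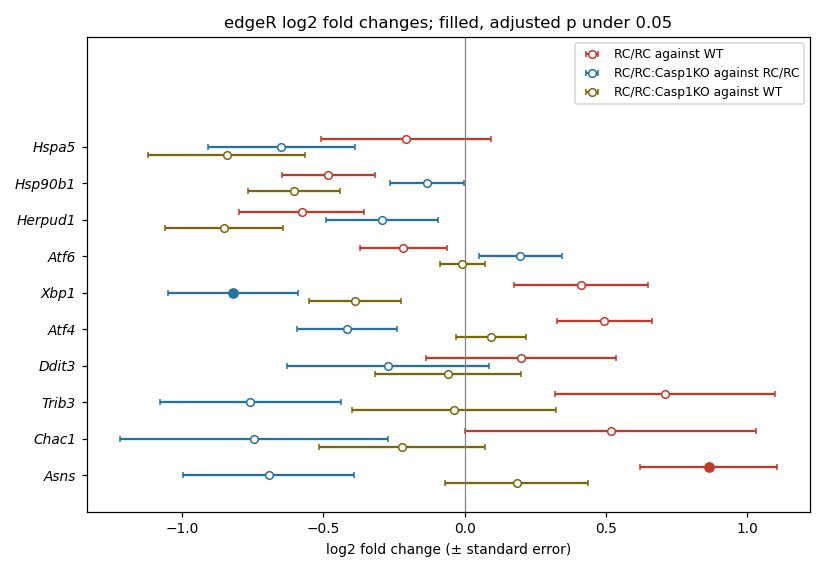
Log2 fold change of each gene in the 3 comparisons (horizontal axis, bars are standard errors from edgeR's quasi-likelihood fits of 4 against 4 mice). Filled points passed an adjusted p of 0.05, which are *Asns* in RC/RC against WT (0.86) and *Xbp1* in RC/RC:*Casp1*KO against RC/RC (-0.82).

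The second comparison, RC/RC:*Casp1*KO against RC/RC, asks what loss of Caspase-1 changes in kidneys with the same *Pkd1* alleles. *Xbp1* was the one gene of the 10 to pass, with lower levels without *Casp1*, and 0 passed with higher levels in edgeR's quasi-likelihood test. Of 15428 genes tested, 4.41% passed with lower and 7.23% with higher levels (11.6% in either direction). Of the 10 estimates 9 were below 0, with a median log2 fold change of -0.53 beside -0.03 over all genes tested. At an unadjusted p under 0.05, 5 genes were lower and 0 higher, beside 16.4% of all genes lower and 31.7% in either direction. DESeq2 called 1 of the 10, also lower, beside 3182 of 17556 genes tested, 1756 of them higher. Without RC139 and RC140 the median of the 10 was -0.23 with edgeR and -0.24 with DESeq2, again with 9 estimates below 0. RC/RC is the control here and the test group above, so both comparisons share the same 4 mice.

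*Xbp1* (ENSMUSG00000020484, chr11:5520659-5525893 on the plus strand in mm10), whose spliced form drives ER chaperone, degradation and secretory genes and is required by plasma cells, had 117, 151, 126 and 108 CPM in the 4 RC/RC:*Casp1*KO mice. The RC/RC mice had 128, 243, 233 and 272 CPM. RC105 lay within the RC/RC:*Casp1*KO range and the other 3 RC/RC mice above it. The level without *Casp1* was 0.566 of that in RC/RC (log2 fold change -0.82, SE 0.23, edgeR adjusted p = 0.0492). *Atf4* had 80.5 ± 11.4 CPM in RC/RC:*Casp1*KO against 107 ± 23.6 CPM in RC/RC (log2 fold change -0.42, adjusted p = 0.145 in the same test). *Ddit3* had 11.4 ± 3.75 and 13.7 ± 6.95 CPM.

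*Hspa5* had 389, 465, 283 and 284 CPM in the RC/RC:*Casp1*KO mice, and 3 of the 4 RC/RC mice were above all of them (log2 fold change -0.65, SE 0.261, edgeR adjusted p = 0.125). *Hsp90b1* differed little, at 234 ± 29.3 against 255 ± 24.9 CPM, and *Herpud1* stood at 293 ± 59 against 355 ± 72.7 CPM, with overlapping groups, and neither passed (edgeR adjusted p = 0.341 for *Herpud1*). *Atf6* was the one estimate above 0 (76 ± 3.45 against 65.9 ± 14.8 CPM, log2 fold change 0.20, adjusted p = 0.387 in the same test). The 3 ATF4 targets had estimates of -0.69 for *Asns* (5.46 ± 2.03 CPM without *Casp1*), -0.76 for *Trib3* (1.43 ± 0.354 CPM) and -0.75 for *Chac1* (1.13 ± 0.0594 CPM) on the log2 scale, none of which passed (edgeR adjusted p from 0.14 to 0.31). Leaving out 1 mouse moved *Asns* between -0.965 and -0.496, *Trib3* between -0.942 and -0.497 and *Chac1* between -0.979 and -0.057. The weakest of 9 alternatives gave -0.307 for *Asns*, -0.334 for *Trib3* and -0.212 for *Chac1*. The highest RC/RC:*Casp1*KO mouse for *Asns*, at 8.33 CPM, was higher than in 2 of the RC/RC mice.

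The *Xbp1* call was as narrow as that of *Asns*. It was kept without RC105 (log2 fold change -1.02, edgeR adjusted p = 0.0083), where *Hspa5* (adjusted p = 0.0304) and *Atf4* (adjusted p = 0.0363) also passed. When any of the other 7 mice was left out the *Xbp1* call was lost (log2 fold change from -0.923 to -0.689, edgeR adjusted p from 0.0776 to 0.13). Without RC139 and RC140, 0 of 10 genes passed by edgeR or DESeq2 (1 at an unadjusted p under 0.05 by each) and the *Xbp1* log2 fold change was -0.67 (edgeR adjusted p = 0.329). Of all 16277 genes tested in that edgeR fit, 55 passed.

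The third comparison, RC/RC:*Casp1*KO against WT, sets the kidneys with both mutations beside the normal kidney. With edgeR, 0 of the 10 genes passed, against 2.03% of 15346 genes tested in either direction (1.13% higher and 0.893% lower). At an unadjusted p under 0.05, 4 of the 10 were lower and 0 higher, beside 9.99% of all genes lower and 21.8% in either direction. DESeq2's Wald test called 1390 of 18000 genes tested, 800 of them higher. Of the 10 genes 3 passed in that test, all lower. These 3 were the chaperones and the degradation gene, *Hspa5* (log2 fold change -0.84 with edgeR, adjusted p = 0.142 with edgeR and 0.0315 with DESeq2), *Hsp90b1* (-0.60, adjusted p = 0.0969 and 0.0103) and *Herpud1* (-0.85, adjusted p = 0.0788 and 0.00278). *Herpud1* had 668, 629, 388 and 434 CPM in WT mice and 275, 380, 263 and 253 CPM in RC/RC:*Casp1*KO mice. It was the one gene of the 10 whose groups did not overlap here, where all 4 mice were below all 4 WT mice, as for 6.54% of all genes tested. The antisense transcript *Gm15890*, which overlaps *Herpud1*, differed the same way at a far lower level (1.68 ± 0.563 against 4.73 ± 3.57 CPM). *Xbp1* had 125 ± 18.7 against 165 ± 30.9 CPM (log2 fold change -0.39, edgeR adjusted p = 0.209). For *Atf6*, *Atf4*, *Ddit3*, *Trib3*, *Chac1* and *Asns* the estimates lay between -0.22 and 0.18, within the spread between mice.

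Some of the 10 genes varied together from mouse to mouse. *Hspa5* varied with *Herpud1* (Pearson r of log2 CPM 0.84 over 12 mice, 0.83 after subtracting each group's mean) and with *Xbp1* (0.78 and 0.83), and *Hsp90b1* with *Herpud1* (0.85 and 0.63). *Trib3* went with *Asns* (0.77 and 0.61), and *Xbp1* with *Atf4* (0.74 and 0.72). *Atf4* varied with its target genes *Asns* (0.56 and 0.15) and *Trib3* (0.49 and 0.14) across the 12 mice but little within groups. *Hspa5* and *Asns* were all but unrelated (0.11 and 0.07), and *Atf6* ran against *Atf4* (-0.79 and -0.69). RC139 and RC140 held the lowest *Atf6* values (53.8 and 54.8 CPM) and the highest *Atf4* values (132 and 118 CPM) of the 12 mice. No correlation was computed without this pair. These correlations are descriptions over 12 mice that share library depth and dissection with the group differences, and have no p-value. Of 15874 genes, the ones most like *Hspa5* over the 12 mice were *Hyou1*, an ER chaperone of the HSP110 family (r = 0.968), *Dnajb2* (r = 0.967) and *Thoc5* (r = 0.967). Those most like *Atf4* were *Ngdn* (r = 0.959), *Bet1l* (r = 0.93) and *Hspa1a* (r = 0.927), those most like *Asns* were *Bbc3* (r = 0.947), *P2ry10* (r = 0.945) and *Emp3* (r = 0.943), and those most like *Trib3* were *Tnnt1* (r = 0.974), *Emp2* (r = 0.95) and *Tor4a* (r = 0.933).

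**Figure D3:**
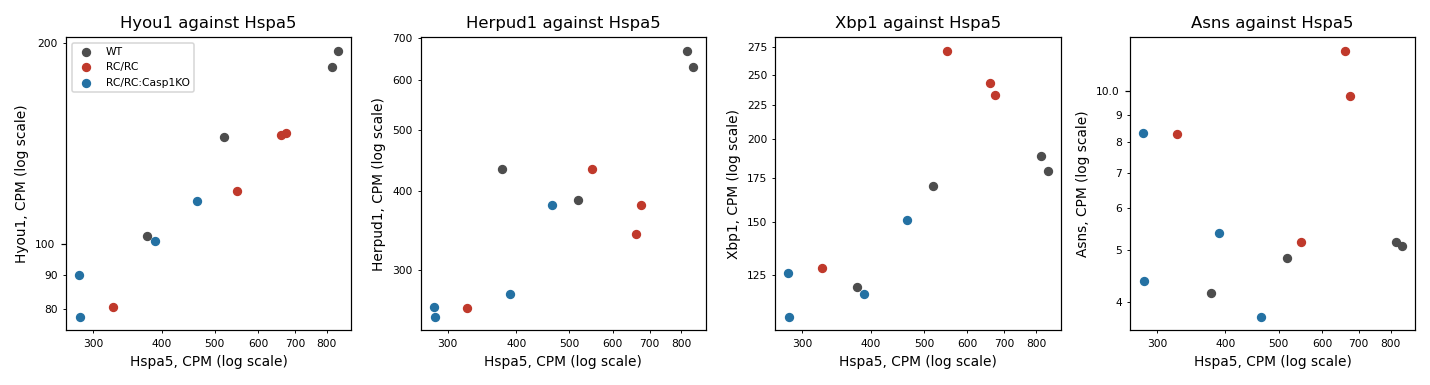
*Hyou1*, *Herpud1*, *Xbp1* and *Asns* (vertical axes) against *Hspa5* (horizontal axes) in the 12 mice, all in CPM on log scales, colored by group. *Hyou1* follows *Hspa5* through all 3 groups (r = 0.968), while *Asns* does not (r = 0.11).

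The 10 genes were then set in the wider pathways, as 9 lists of 163 further genes. In RC/RC against WT 158 of these were tested, 8 passed with higher and 2 with lower levels in RC/RC, beside 12.9% of all genes in either direction, and their median log2 fold change was -0.06. Among the 20 tested targets of ATF4 and CHOP 3 were higher and 0 lower by edgeR (7 and 2 at an unadjusted p under 0.05), with a median of 0.22, and DESeq2 called 6 higher and 1 lower of 22, with a median of 0.11. *Atf3*, a stress-induced transcription factor of the same family as *Atf4*, had 3.15, 2, 2.26 and 1.46 CPM in WT mice and 5.28, 9.85, 7.84 and 7.76 CPM in RC/RC mice. Every RC/RC mouse was above every WT mouse, as for 1913 of all 15243 genes tested (*Atf3* log2 fold change 1.79, SE 0.278, edgeR adjusted p = 0.00377). *Stc2*, a secreted glycoprotein gene, rose by 1.40 on the log2 scale (SE 0.298, adjusted p = 0.0147 in the same test) and *Bbc3*, which encodes the cell death protein PUMA, by 0.84 (SE 0.184, adjusted p = 0.0162 in the same test).

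Of 25 ER chaperones and folding enzymes tested, *Mzb1* was higher and *Canx* lower by edgeR (2 and 5 at an unadjusted p under 0.05), and DESeq2 called 1 higher and 3 lower. Of the 25 estimates, 18 were below 0 and the median was -0.16. *Canx* encodes calnexin, a lectin chaperone (416 against 598 CPM, log2 fold change -0.52, edgeR adjusted p = 0.0294), and *Mzb1* is a cofactor of GRP94 in plasma cells and B cells (log2 fold change 2.03, adjusted p = 0.0172 in the same test). *Calr*, the most abundant of the list per length (292 FPKM over the 12 mice), had a log2 fold change of -0.44 (edgeR adjusted p = 0.14). Of 19 genes in the list of ER-associated degradation *Edem3*, a mannosidase-like protein of glycoprotein disposal, was lower (-0.48 on the log2 scale), and the 1 higher was *Fam129a* (0.73), which encodes a stress-induced regulator of translation and is not a degradation factor, of 24 genes of translocation and early secretion the signal peptidase subunit *Spcs3* was higher (0.58), and of 17 sensors and regulators 0 passed by edgeR and 1 by DESeq2, with 3 at an unadjusted p under 0.05 by edgeR, all lower. In amino acid and one-carbon synthesis *Mthfd1l*, a mitochondrial folate enzyme, was higher (1.41 on the log2 scale, edgeR adjusted p = 0.00952), as 1 of 10 genes tested. *Hspb1*, a small heat shock protein gene, was the 1 of 14 cytosolic heat shock genes to pass (1.76 on the log2 scale, edgeR adjusted p = 0.035), with 141 and 95.4 CPM in RC139 and RC140 and 34.3 and 38.2 CPM in RC105 and RC143. Of 20 cytosolic aminoacyl-tRNA synthetases 0 passed by edgeR and 1 by DESeq2, with 4 at an unadjusted p under 0.05 by edgeR, and of 9 mitochondrial chaperones and proteases 0 passed by edgeR and 2 by DESeq2, with 2 at an unadjusted p under 0.05 by edgeR.

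The calls of *Atf3*, *Stc2*, *Mthfd1l*, *Mzb1* and *Spcs3* were kept when any 1 of the 8 mice was left out, and *Bbc3* was kept in 7 of these 8 fits. *Canx* was kept in 3, *Fam129a* and *Hspb1* in 2 and *Edem3* in 1 of the 8. Without both RC139 and RC140 edgeR called 1 pathway gene and DESeq2 called 7 (6 higher and 1 lower). By edgeR only *Spcs3* of the 10 passed (log2 fold change 0.66, edgeR adjusted p = 0.032), while *Atf3* had a log2 fold change of 1.56 (adjusted p = 0.0591 in the same test), and the calls over all genes fell from 1971 to 492. The edgeR log2 fold changes that no longer passed were 1.29 for *Stc2*, 1.14 for *Mthfd1l*, 1.60 for *Mzb1*, 0.66 for *Bbc3*, 0.92 for *Fam129a*, -0.40 for *Canx* and -0.30 for *Edem3*, whereas *Hspb1* went from 1.76 to 0.68 and the median of the heat shock list from 0.27 to -0.06. The pair was picked by its *Hspa1a* level, and *Hspa1a* is in the heat shock list. The fall of that list without the pair was therefore in part set by the choice of mice.

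Without *Casp1*, 120 of 158 tested list genes had estimates below 0 relative to RC/RC, where the median log2 fold change was -0.21 and 8 passed with lower and 2 with higher levels. Over all genes tested 52.5% had estimates below 0, with a median of -0.03, and 4.41% passed with lower and 7.23% with higher levels. Without RC139 and RC140, 124 of 159 list genes had estimates below 0, with a median of -0.14. *Atf3* fell by 1.51 on the log2 scale (SE 0.273, edgeR adjusted p = 0.0139), from 7.68 to 2.7 CPM, and *Gdf15*, a stress-induced hormone gene of the same list, fell by 1.24 (SE 0.252, adjusted p = 0.0198 in the same test). All 4 RC/RC:*Casp1*KO mice were below all 4 RC/RC mice for both, as for 1337 of all 15428 genes tested. Of the 14 cytosolic heat shock genes *Hspb1* (-1.98) and *Hspb8* (-1.50 on the log2 scale) were lower, 13 had estimates below 0 and the median was -0.61. When RC139 and RC140, the mice with the most *Hspa1a*, were left out, the log2 fold changes were -0.88 for *Hspb1*, -0.74 for *Hspb8*, -0.74 for *Gdf15* and -1.26 for *Atf3*. None of these 4 passed by edgeR, and the median of the heat shock list was -0.29. *Hspa1a* is in that list, so its smaller shift without these mice was in part set by their choice. DESeq2 without this pair called 2 of 21 targets of ATF4 and CHOP and 1 of 14 heat shock genes lower. *Erp29*, an ER folding factor, *Ostc*, a subunit of the oligosaccharyltransferase, and *Ube2g2*, a ubiquitin-conjugating enzyme of ER-associated degradation, were lower by 0.44, 0.53 and 0.50 on the log2 scale (edgeR adjusted p from 0.0213 to 0.0454). *Gars* was lower (-0.37) and *Eprs* higher (0.42), as was the amino acid sensor kinase gene *Eif2ak4* (0.54). *Atf3* kept its call without any 1 of the 8 mice. *Gdf15* and *Ostc* kept theirs in 5 of these 8 fits, *Hspb1* and *Hspb8* in 3, *Erp29* and *Eprs* in 2, and *Ube2g2*, *Gars* and *Eif2ak4* in 1. Without RC139 and RC140, 0 of 159 list genes passed by edgeR and 3 by DESeq2, with 15 at an unadjusted p under 0.05 by edgeR, when 55 of all genes tested passed by edgeR.

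In RC/RC:*Casp1*KO against WT 126 of 159 tested genes had estimates below 0 with a median log2 fold change of -0.22, while 48.5% of all genes tested had estimates below 0 and their median was 0.01. *Cebpb*, a transcription factor of the C/EBP family, and *Hsp90aa1*, the inducible cytosolic HSP90, were lower by 1.30 and 0.80 on the log2 scale (edgeR adjusted p = 0.025 and 0.0168), and *Mzb1* was higher (1.86, adjusted p = 0.0444 in the same test), beside 2.03% of all genes called in either direction. When 1 of the 8 mice was left out, *Cebpb* kept its call in 5, *Hsp90aa1* in 4 and *Mzb1* in 1 of the 8 fits. At an unadjusted p under 0.05, 63 of the 159 were lower and 9 higher, beside 9.99% of all genes tested that were lower. The 63 included 17 of 25 ER chaperones and folding enzymes, 12 of 24 genes of translocation and early secretion, 10 of 20 aminoacyl-tRNA synthetases and 4 of 9 mitochondrial chaperones and proteases. Of 21 targets of ATF4 and CHOP 4 were lower and 5 higher. Of the 25 ER chaperones and folding enzymes 0 passed as lower by edgeR and 10 by DESeq2. Over all genes DESeq2 called 1390 of 18000 tested, 800 of them higher.

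**Figure D4:**
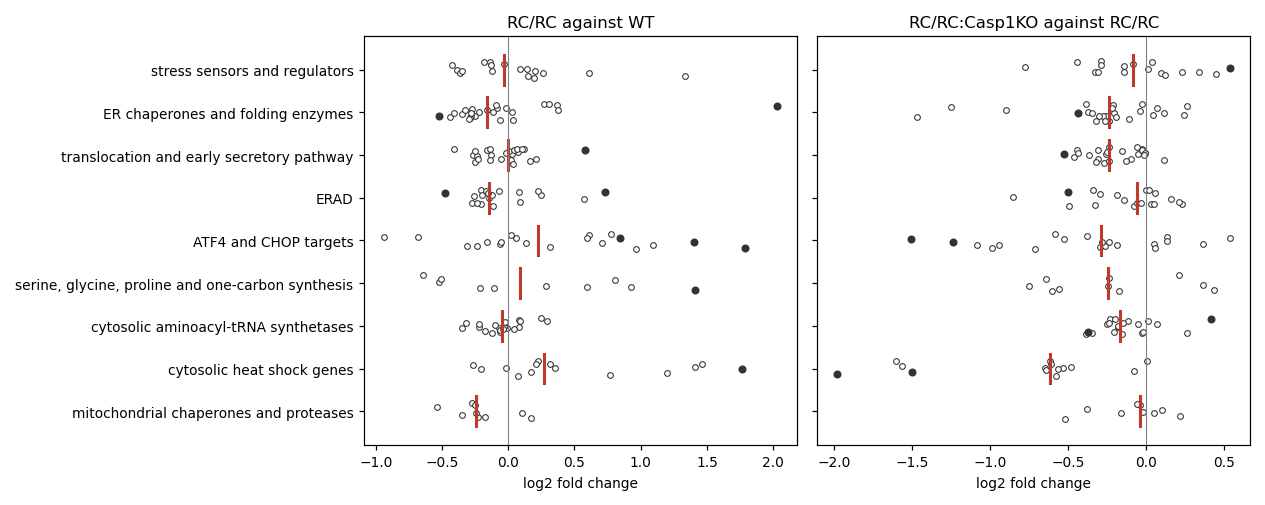
Log2 fold change (horizontal axis) of the tested genes of 9 pathway lists in RC/RC against WT and in RC/RC:*Casp1*KO against RC/RC. Each point is a gene, filled where its adjusted p was under 0.05, and red bars are list medians, which run from -0.25 to 0.27 on the left and from -0.61 to -0.04 on the right.

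Markers of plasma cells, macrophages and fibroblasts were mostly higher in RC/RC than in WT kidneys. The summed CPM of 14 plasma cell markers, secretory cells that depend on *Xbp1*, was 82 ± 27.7 in WT, 1660 ± 652 in RC/RC and 678 ± 401 in RC/RC:*Casp1*KO kidneys, and 10 of 13 tested were higher in RC/RC than in WT. Their most abundant gene by CPM was the antibody gene *Igha* (7.16 to 34 CPM in WT and 481 to 851 CPM in RC/RC mice). *Igkc* was the most abundant per length (818 FPKM over the 12 mice). *Prdm1*, a transcription factor gene that defines these cells, overlapped between WT (3.15 to 4.78 CPM) and RC/RC (3.6 to 5.15 CPM), and *Tnfrsf17* did not pass the filter on low counts. *Mzb1* and *Derl3* stand in a pathway list and in this one. Macrophage markers summed to 178 ± 17.9, 487 ± 68.1 and 322 ± 131 CPM, with 9 of 10 higher in RC/RC than in WT, and fibroblast markers to 269 ± 40, 1250 ± 469 and 460 ± 193 CPM, with 8 of 8 higher in RC/RC than in WT and 6 of 8 lower in RC/RC:*Casp1*KO than in RC/RC. In that second comparison 1 of 13 plasma cell and 2 of 10 macrophage markers were lower by edgeR (9 and 3 at an unadjusted p under 0.05), and 7 of 14 and 3 of 10 by DESeq2. There 1 RC/RC:*Casp1*KO mouse, with 1270 CPM of plasma cell and 515 CPM of macrophage markers, was level with RC/RC mice (from 1270 and from 398 CPM). *Lyz2* and *Dcn* were the most abundant of each per length (64.7 and 48 FPKM). Proximal tubule markers summed to 23000 ± 10200, 16400 ± 8160 and 22200 ± 7220 CPM, with *Kap* the most abundant per length (16600 FPKM), markers of distal nephron and collecting duct to 7520 ± 1440, 5200 ± 836 and 6160 ± 1500 CPM, and podocyte markers to 538 ± 112, 462 ± 83.4 and 450 ± 43.6 CPM. The distal sum was mostly *Umod* (3950, 2840 and 3270 CPM), and its list went both ways in RC/RC against WT. *Slc12a3*, the thiazide-sensitive salt transporter, and *Calb1*, a calcium-binding protein, were lower (from 979 to 240 and from 491 to 109 CPM), and the epithelial keratin genes *Krt8* and *Krt18* were higher (log2 fold changes of 0.77 and 1.27), as 2 and 2 of 11 tested by edgeR and as 2 lower and 4 higher by DESeq2. When RC139 and RC140 were left out, 1 of the 11 was lower and 0 higher by edgeR (2 and 2 at an unadjusted p under 0.05), and 2 and 1 by DESeq2. The proximal tubule genes *Cubn* and *Slc5a2* were lower in RC/RC than in WT, and *Lrp2* and *Cubn* were higher in RC/RC:*Casp1*KO than in RC/RC, as 2 of 9 tested by edgeR each time, where DESeq2 called 5 lower and 4 higher. Without RC139 and RC140, 10 of the 14 plasma cell markers then tested, 7 of 10 macrophage and 4 of 8 fibroblast markers were higher in RC/RC than in WT by edgeR, and 10, 9 and 7 by DESeq2. In RC/RC:*Casp1*KO against RC/RC, 1 of 8 fibroblast and 0 of 14 plasma cell markers were then lower by edgeR (6 and 7 at an unadjusted p under 0.05), and 4 of 8 and 3 of 13 by DESeq2, while 0 of 10 macrophage markers passed by either tool (2 and 3 at an unadjusted p under 0.05). Of 9 proximal tubule markers 0 passed by edgeR in either comparison (3 lower in RC/RC than in WT and 4 higher in RC/RC:*Casp1*KO than in RC/RC at an unadjusted p under 0.05, and 1 lower and 4 higher by DESeq2). The part of these shifts in the values of *Asns*, *Xbp1*, *Atf4* and the ER chaperones was not tested.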

How the data were processed

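Novogene made and sequenced the poly(A) libraries for the authors, and the submitters' processing notes name CASAVA 1.8, STAR and mm10. The counting tool, annotation and strand setting are not given in the sources used here. The deposited values are raw read counts per gene and mouse, without normalization. The authors' fold changes, p-values, FPKM and group means in the same table were not used. Columns give a group and a mouse number, so each was assigned to a group and 0 columns were of unknown group. All 18 pairs of mice of one group differed far beyond counting error (chi-square over its degrees of freedom 15.7 to 128), so the mice were treated as replicates. The lowest values were between mice alike in *Kap* (16.4 and 17.7 in WT, 15.7 and 31.8 in RC/RC:*Casp1*KO, 37.2 for RC140 and RC143). RC105 and RC139, also alike in *Kap*, had 69.7, and pairs unlike in *Kap* had 67.1 to 128. RC139 and RC140 had 67.6, so RC140 was closer to RC143 than to RC139.

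Each of 3 comparisons was fitted on its 8 mice with edgeR 4.0.16 (R 4.3.3), TMM factors (0.929 to 1.08), filterByExpr and the quasi-likelihood test, adjusted over all genes by the Benjamini-Hochberg method, with a call at an adjusted p under 0.05. Standard errors are the log2 fold change over the square root of F. CPM uses TMM factors of 12 libraries, and FPKM is the count over gene length and library total. A count of 3 is 0.115 to 0.166 CPM. The fits were tested on simulated data. Promoters came from RefSeq (GRCm38.p6), and BLAST 2.17.0 found no near copy of the 10 genes outside their own loci (95% identity over 100 bases or more).

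The 10 genes and all lists were chosen with earlier results of these data known. Named genes are the 10, *Casp1* and *Pkd1*, up to 3 called genes per list and comparison with the largest change, the most abundant gene per length of each list and the 3 genes most correlated with *Hspa5*, *Atf4*, *Asns* and *Trib3*. *Hspa1b*, *Lrp2*, *Krt8*, *Igha*, *Prdm1*, *Tnfrsf17*, *Derl3*, *Mars*, *Gm15890*, *Manf*, *Sdf2l1*, *Creld2* and *Ern1* were chosen in addition after their values were seen or to describe an overlap or a marker list. Alternatives were RLE factors, library size alone, DESeq2 1.42.0, other count filters, one dispersion for the 12 mice, correction for gene length, limma 3.58.1 on log2(FPKM + 1), leaving out each mouse and, after seeing the data, leaving out RC139 and RC140.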

Additional observations from a re-analysis of the deposited data

Results flagged for a closer look

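In 30 groups of 4 mice (the 10 genes in each group), 1 value stood apart by Dixon's criterion, and chance flags about 1 group in 20. It was *Hsp90b1* in mouse RC139, at 292 CPM, where the nearest other RC/RC mouse had 244 CPM and the gap took up 0.953 of the group's range.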

How the results depend on the processing

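No paired analysis was possible because the columns carry no replicate numbers. Over the 30 log2 fold changes of the 10 genes, 232 of 260 refits under other settings kept the direction and the side of the threshold, as did 208 of 240 refits without 1 mouse. The number of the 10 genes called in RC/RC against WT (1) was 2 with library size alone and with DESeq2, and 0 with the length trend removed, with limma on log2(FPKM + 1) and without RC139 and RC140. A count of 1 was not always *Asns*: with a dispersion from 12 mice *Asns* did not pass (edgeR adjusted p = 0.0512) and *Hsp90b1* did, as *Atf4* did without RC105 and *Hsp90b1* without WT mouse 4. For RC/RC:*Casp1*KO against RC/RC (1) it was 0 with RLE factors, library size alone, the length trend removed, limma and without these mice, and in RC/RC:*Casp1*KO against WT (0) it was 3 with DESeq2. Leaving out 1 mouse gave 0 to 1, 0 to 3 and 0 to 0. The number of pathway genes called in RC/RC against WT (10) was 23 with DESeq2, 17 with a dispersion from 12 mice and, without RC139 and RC140, 1 with edgeR and 7 with DESeq2. With RC/RC:*Casp1*KO against RC/RC (10) it was 27 with DESeq2, 18 with a dispersion from 12 mice, 5 with library size alone, 4 with limma and, without these mice, 0 with edgeR and 3 with DESeq2, and in RC/RC:*Casp1*KO against WT (3) it was 27 with DESeq2 and 5 with the length trend removed. Leaving out 1 mouse gave 5 to 19, 1 to 41 and 0 to 12 pathway genes, where the 19 came without RC143, the 41 without RC105 and the 12 without RC/RC:*Casp1*KO mouse 42. Over 9 alternatives *Asns* passed in 5 and *Xbp1* in 4. Only log2 fold changes that had not passed changed sign. In RC/RC against WT *Ddit3* was -0.085 with the length trend removed, and without RC139 and RC140 *Atf6* was 0.018, *Ddit3* -0.51 and *Chac1* -0.007. Without these mice the second comparison, RC/RC:*Casp1*KO against RC/RC, gave -0.022 for *Atf6* and 0.46 for *Ddit3*. Against WT, RC/RC:*Casp1*KO gave 0.12 for *Atf6*, 0.079 for *Ddit3* and 0.092 for *Trib3* with library size alone, 0.11, 0.043 and 0.05 with limma, and 0.007 for *Atf6* with 10 counts in every mouse. Leaving out 1 mouse moved *Ddit3* between -0.186 and 0.382, -0.486 and 0.121, and -0.274 and 0.101 in the 3 comparisons, *Chac1* between -0.182 and 0.803 in the first and -0.372 and 0.066 in the last, and in the last *Trib3* between -0.258 and 0.274, *Atf6* between -0.071 and 0.039 and *Asns* between -0.098 and 0.33. The median of all genes shifted by 0.10 and 0.13 with library size alone and by -0.10 and -0.12 with the length trend removed, for RC/RC against WT and for RC/RC:*Casp1*KO against WT. Higher calls made up 75.4% of calls in RC/RC against WT with TMM, 86.1% with library size alone and 57.5% with the length trend removed, 62.1% and 82% with TMM and library size alone in the second comparison, and 55.9%, 79.8% and 33.6% in the third. The cause of these changes was not tested. Depth limits *Chac1* and *Trib3* most, at 16 to 77 reads per library.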

Other observations

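Some ER chaperone genes outside the 10, such as *Manf*, *Sdf2l1* and *Creld2*, were higher in RC139 and RC140 than in RC105 and RC143. Not all of that list were, as *Canx* had 357 and 404 CPM in RC139 and RC140 and 432 and 471 CPM in RC105 and RC143. *Manf*, which encodes a secreted ER-resident neurotrophic factor induced by unfolded proteins, had 150 and 153 CPM in RC139 and RC140 and 45.9 and 84 CPM in RC105 and RC143. The WT mice 2, 3, 4 and 6 had 119, 111, 62.8 and 41 CPM, and the RC/RC:*Casp1*KO mice 32 to 60.9 CPM. *Sdf2l1*, a component of the ER chaperone complex with BiP, had 44 and 35.3 CPM in RC139 and RC140, 12.5 and 13.2 CPM in the other RC/RC mice, 30.5, 26.1, 10.1 and 14.5 CPM in the WT mice and 7.24 to 13.6 CPM in the RC/RC:*Casp1*KO mice. *Creld2* had 56 and 59.5 CPM in RC139 and RC140 beside 20.1 and 40.8 CPM, with 56.2, 52.9, 40.2 and 29 CPM in WT mice and 18.1 to 30.1 CPM in RC/RC:*Casp1*KO mice. WT mice 2 and 3 were the higher pair of their own group for these 3 genes and had less *Kap* than WT mice 4 and 6 (2340 and 6050 beside 18400 and 17700 CPM), while RC139 and RC140 differed in *Kap* (3000 and 14400 CPM). In RC/RC:*Casp1*KO against RC/RC the log2 fold changes were -1.25 for *Manf*, -1.47 for *Sdf2l1* and -0.90 for *Creld2* (edgeR adjusted p = 0.0557, 0.052 and 0.0876). *Ern1*, which encodes the sensor IRE1α, ran the other way, with its lowest values of all 12 mice in RC139 and RC140 (24.5 and 25.9 CPM, against 36.9 to 48.9 CPM in the other 10).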
